A study of Mus musculus with 6 samples.

Results

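The mitotic kinesins are motor proteins that build the spindle, move chromosomes along it and close the cell at the end of division. Their transcripts were followed in haematopoietic stem cells (HSCs) from mouse bone marrow that carried the surface receptor CD93 or lacked it. The set holds 10 genes, chosen by name from the 47937 genes of the deposited tables: Kif11, Kif15, Kif18a, Kif20a, Kif20b, Kif22, Kif23, Kif2c, Kif4 and Kif14. Polyadenylated RNA came from wild-type C57BL/6 mice aged 8 weeks and described as male, with no treatment. Cells were depleted of lineage-positive marrow, then gated by flow cytometry as Kit and Sca-1 positive, Slam1 positive, and negative for CD34, Flt3 and CD48. CD93-positive cells gave 3 libraries (CD93pos) and CD93-negative cells gave 3 (CD93neg). Bones were pooled for the marrow preparation, and the labels call the replicates biological without saying which animals gave which library, so p-values measure the spread between these libraries.

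Kinesins walk along microtubules, or take them apart at their ends, with energy from ATP. Those of mitosis are made mainly in the G2 and M phases of the cell cycle and are largely destroyed as the cell leaves division, so cells at rest hold little of them. Adult HSCs are mostly at rest, and a marrow HSC that has entered the cycle is the usual source of such transcripts in this compartment. Many genes of G2 and mitosis share a short promoter element, the cell cycle genes homology region (CHR), read by MuvB complexes that repress these genes in resting cells and, with B-Myb and FoxM1, activate them before division. A CCAAT box bound by NF-Y often lies upstream of it.

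The promoters are shown because the members belong to this class of genes. RefSeq windows of the build GRCm38.p6 were found for 9 of the 10 members. The stretches below run from 120 bases before the transcript start to 24 bases after it, 5′ to 3′ on the strand of the gene, with capitals for matches to CCAAT or to the CHR letters TTTGAA and TTTAAA on either strand. Kif11, Kif15 and Kif22 are shown because TTTGAA lies just before the start on the reverse strand, Kif20b because it has a tandem pair after the start, and Kif18a because none of these letters occurs in its window. Their positions are chr19:37376262-37376406 (Kif11, plus strand), chr9:122950961-122951105 (Kif15, plus), chr7:127042396-127042540 (Kif22, minus), chr19:34922238-34922382 (Kif20b, plus) and chr2:109280618-109280762 (Kif18a, plus).
Kif11: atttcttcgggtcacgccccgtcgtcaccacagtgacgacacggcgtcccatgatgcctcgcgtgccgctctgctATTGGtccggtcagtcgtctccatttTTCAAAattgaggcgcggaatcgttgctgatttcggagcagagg
Kif15: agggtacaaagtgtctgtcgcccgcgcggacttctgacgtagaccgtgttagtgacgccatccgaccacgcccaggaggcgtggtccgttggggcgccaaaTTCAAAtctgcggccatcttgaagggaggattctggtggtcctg
Kif22: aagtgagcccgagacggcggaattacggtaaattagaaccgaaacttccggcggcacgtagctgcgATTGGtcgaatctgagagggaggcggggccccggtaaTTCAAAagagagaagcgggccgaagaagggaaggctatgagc
Kif20b: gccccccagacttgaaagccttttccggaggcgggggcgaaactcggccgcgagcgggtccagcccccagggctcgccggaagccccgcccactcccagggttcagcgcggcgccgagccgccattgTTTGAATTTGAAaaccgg
Kif18a: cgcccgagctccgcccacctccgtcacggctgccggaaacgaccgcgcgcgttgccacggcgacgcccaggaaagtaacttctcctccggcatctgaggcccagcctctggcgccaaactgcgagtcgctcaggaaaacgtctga

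TTTGAA, counted on both strands, was present in 8 of the 9 member windows of 300 bases, which reach from 250 bases before the start to the first 50 transcribed bases. The same letters occurred in 17.9% of all 32851 RefSeq promoter windows of that length. TTTAAA, which reads the same on both strands, was found in 2 member windows (Kif14 and Kif2c) and in 13.2% of all windows. CCAAT was found in 5 member windows (Kif11, Kif14, Kif22, Kif23 and Kif4) and in 37.4% of all windows. The search also placed TTTGAA within 25 bases of the start in 6 members, Kif11, Kif15, Kif20b, Kif22, Kif23 and Kif4, against 2.51% of all windows, a distance chosen after the matches were seen. With the start base as 0, the match ran from -19 to -14 in Kif11 and in Kif15 and from -17 to -12 in Kif22. In Kif11 a CCAAT box on the reverse strand ran from -45 to -41, and in Kif22 another ran from -54 to -50. The GC content of the member windows ranged from 43.7% (Kif14) to 65.0% (Kif23), with a median of 52.7% over all windows. The windows of Kif14 (chr1:136467598-136467897), Kif2c (chr4:117178723-117179022) and Kif4 (chrX:100625815-100626114) lie wholly inside the genes as GENCODE M21 places them. They start from RefSeq transcripts that begin within the gene, and whether these are the promoters used in HSCs was not tested. A match is a run of letters, and binding was not measured.

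**Figure D1:**
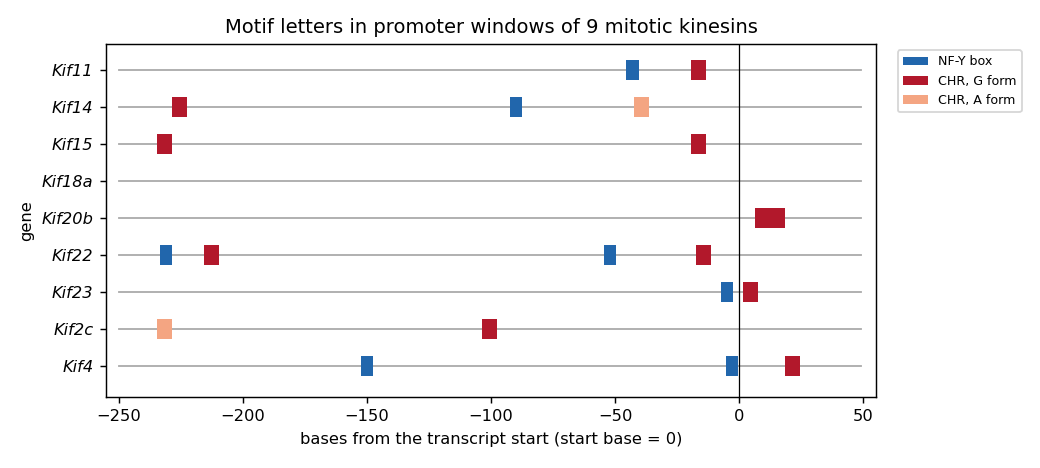
Positions of the CCAAT letters (NF-Y box) and of the CHR letters TTTGAA (G form) and TTTAAA (A form) in promoter windows of 9 mitotic kinesins; the horizontal axis is the distance in bases from the transcript start, each grey line is 1 window, and each coloured block is 1 match on either strand. The G form lies within 25 bases of the start in 6 of the 9 genes, and the Kif18a line carries no block. The windows of Kif14, Kif2c and Kif4 lie inside the genes.

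Assigned reads per library numbered 5794528 to 9509304 in CD93pos and 2832653 to 4614396 in CD93neg. CD93neg replicate 1 stood apart, with no read for 71.0% of the 11805 tested genes (mean normalized count of at least 10), while replicates 2 and 3 lacked 26.4% and 16% of them and CD93pos libraries 2.10% to 13.5%. Of 13 HSC markers, 13 were read in every library except this one, where 6 were; Procr and Slamf1 were at 0 there and Hlf and Meis1 were not. Cd93 had 550 to 1001 reads in CD93pos and 0, 419 and 38 in CD93neg, where the library with 419 overlapped CD93pos after normalization. Xist had 0, 2419 and 1143 reads in CD93neg and 0, 0 and 12 in CD93pos. The 4 Y-linked genes Ddx3y, Eif2s3y, Kdm5d and Uty had 1 read in CD93neg in all, from replicate 1. All 4 were read in every CD93pos library, with 888, 750 and 768 reads of Eif2s3y. CD93neg replicates 2 and 3 therefore go against the label of male mice. Y-linked reads split along the CD93 groups, so differences by CD93 and by the sex or source of the animals cannot be told apart. Gene levels below are normalized counts, that is, deposited values in which each library's counts were divided by its size factor.

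All 10 members were read in CD93pos, and as a set they were read more in CD93pos than in CD93neg. In order of replicate number, an order kept for all values below, their summed reads came to 1125, 807 and 1049 CPM (reads per 1e6 assigned reads) for CD93pos. For CD93neg the sums were 0.706, 255 and 201 CPM. Every CD93pos library therefore lay above every CD93neg library. The CD93pos mean of 993 ± 166 CPM was 6.53 times the CD93neg mean of 152 ± 134 CPM (SD, n = 3 each). The ratio was 9.86 without CD93neg replicate 2 and 4.36 without CD93neg replicate 1, a library with 2 reads of the 10 genes together. In bulk RNA, fewer dividing cells, less RNA per dividing cell and a different mix of cell types cannot be told apart.

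No member passed the test: limma, fitted across all genes on log2(normalized count + 1) with Benjamini-Hochberg adjustment and a threshold of 0.05, called 0 of the 10, as it called 0 (0%) of the 11805 tested genes. All 10 passed the filter on low values. At an unadjusted p under 0.05, 3 of the 10 were higher in CD93pos (Kif15, Kif20a and Kif20b), where the share of all tested genes was 11.8%. edgeR's quasi-likelihood test on the reads recovered from the normalized counts also called 0 of the 10 and 0 of all tested genes. At an unadjusted p under 0.05 edgeR had 2 of the 10 higher (Kif15 and Kif20a), and 9.04% of all tested genes. The authors' deposited table, made with DESeq2, has 2 of the 10 at an adjusted p under 0.05, Kif20a and Kif15, against 5.97% of the genes it tested in both directions and 5.58% called higher in CD93pos when DESeq2 was run on the recovered reads. With a pseudocount of 0.5 in place of 1, limma called 1 of the 10, Kif20a, beside 1.73% of all tested genes called higher. The fold changes of all 10 were above 0, as were 79.9% of all tested genes, and their median was 4.90 on the log2 scale against 2.36 for all tested genes. Under quantile normalization, which set the median of all tested genes to 0.02, the median of the members was 2.48 and Kif14 turned to -0.70, while the other 9 stayed above 0. At an unadjusted p under 0.05, 1391 genes were higher and 45 lower in CD93pos on the authors' scaling, and 689 higher and 916 lower under quantile normalization. In 4 of the 10 (Kif15, Kif20a, Kif20b and Kif22) the lowest CD93pos library exceeded the highest CD93neg library, as it did for 18.3% of all tested genes.

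**Figure D2:**
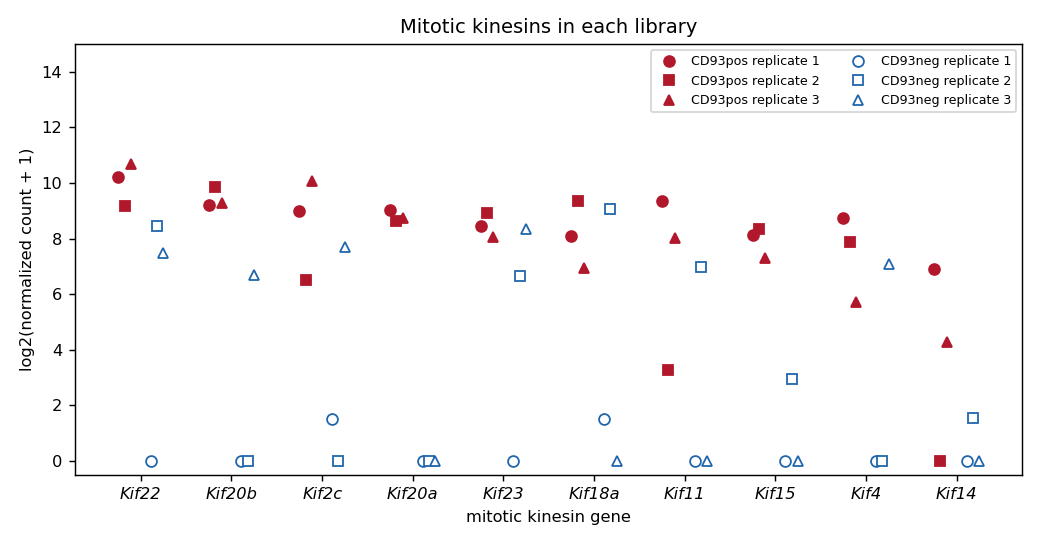
Level of each mitotic kinesin in each library, as log2(normalized count + 1) on the vertical axis, with genes ordered by their CD93pos mean; filled red symbols are CD93pos and open blue symbols CD93neg, and the symbol shape gives the replicate. Kif20a is at 0 in all 3 CD93neg libraries, and Kif18a in CD93neg replicate 2 lies among the CD93pos libraries.

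Markers of other cell types differed between the same libraries, and their part in the kinesin values was not tested. All 16 neutrophil markers were read in CD93neg replicate 2 and 13 in replicate 3, with sums of 15363 and 9857 CPM, and 0 CPM in replicate 1. The CD93pos sums were 220 to 609 CPM, with Ly6g at 0 in each. The log2 fold change was below 0 for 13 of the 16, while Mpo, Elane and Cxcr2 had 6.23, 3.40 and 0.26. B lineage markers (11 genes) summed to 0.706, 11122 and 34023 CPM in CD93neg and to 76.3 to 102 CPM in CD93pos, where Cd79a, Ms4a1, Pax5, Ebf1 and Vpreb3 were at 0. Other B lineage markers were read there: Cd79b had 584, 364 and 349 reads against 0, 786 and 340 in CD93neg, and Vpreb1 had 7, 47 and 16 against none. Of 12 mast cell and basophil markers 7 were read in any library, with sums of 95.5 to 1057 CPM in CD93pos and 0 to 72.6 CPM in CD93neg, where Prss34, Mcpt8 and Fcer1a were at 0. The log2 fold change was above 0 for 6 of these 7, and Prg2 went the other way at -2.12. Erythroid markers (13 genes) summed to 3581 to 4446 CPM in CD93pos and 2999 to 3722 CPM in CD93neg. Most of these reads were of Car2, with a log2 fold change of -0.09, while Klf1 had 1094, 375 and 1166 CD93pos reads and no CD93neg read. Megakaryocyte markers (10 genes) summed to 796 to 1786 CPM in CD93pos and 306 to 501 CPM in CD93neg.

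The motors of spindle bipolarity are Kif11 and Kif15. Kif11 (also known as Eg5; ENSMUSG00000012443.3, GRCm38 chromosome 19, 37376403 to 37421859) slides antiparallel microtubules and pushes the spindle poles apart. Its normalized counts were 651, 8.72 and 258 in CD93pos, and 0, 124 and 0 in CD93neg. CD93pos replicate 2, with 11 reads, lay below CD93neg replicate 2, with 130, so the groups overlapped. The fitted log2 change of Kif11 was 4.56 with an SE of 2.49 (limma adjusted p = 0.485), within the spread between replicates.

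Kif15 (ENSMUSG00000036768.5, GRCm38 chromosome 9, 122951046 to 123018733) helps Kif11 to hold the poles apart. It had 279, 324 and 157 normalized counts in CD93pos and 0, 6.66 and 0 in CD93neg, where the value above 0 came from 7 reads. The groups did not overlap, and the CD93pos libraries lay within 2.06-fold of each other. The fitted log2 change was 6.95 with an SE of 1.52 (limma adjusted p = 0.0641). In the authors' deposited table Kif15 stands at 6.74 on the log2 scale, with an adjusted p of 0.0202.

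Kif22, Kif4 and Kif18a act on chromosomes. Kif22 (also known as Kid; ENSMUSG00000030677.8, GRCm38 chromosome 7, 127027729 to 127042471) binds DNA and pushes chromosome arms away from the poles. Its normalized counts were 1182, 581 and 1622 in CD93pos and 0, 346 and 177 in CD93neg, with no overlap. The fitted log2 change was 4.71 with an SE of 2.51 (limma adjusted p = 0.474), and 2.06 (limma adjusted p = 0.166) without CD93neg replicate 1. Kif22 had the highest mean in CD93pos, although Kif20b and Kif18a had more reads in CD93pos replicate 2. With Kif23 it was read in both CD93neg replicates 2 and 3.

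Kif4 (ENSMUSG00000034311.3, GRCm38 chromosome X, 100625737 to 100727214), a chromosome-bound motor that also limits the growth of midzone microtubules, had 421, 235 and 51.1 normalized counts in CD93pos. It had 0, 0 and 134 in CD93neg, so CD93neg replicate 3 lay above CD93pos replicate 3. Its fitted log2 change was 5.08 with an SE of 2.28 (limma adjusted p = 0.423). Pdzd11 on the opposite strand shares 832 exon bases with Kif4, or 15.1% of its exons, and had 0, 527 and 604 reads in CD93neg.

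Kif18a (ENSMUSG00000027115.14, GRCm38 chromosome 2, 109280738 to 109341747) walks to the plus ends of kinetochore microtubules and damps chromosome swings. Its normalized counts were 269, 658 and 121 in CD93pos and 1.82, 539 and 0 in CD93neg. CD93neg replicate 2, with 567 reads, lay above all CD93pos libraries except replicate 2. The ratio of the group means was the smallest of the 10 members, with 349 ± 277 and 180 ± 311 normalized counts (SD, n = 3 each). The fitted log2 change was 4.60 with an SE of 2.62 (limma adjusted p = 0.502), a value that includes the 1 read and 0 reads of CD93neg replicates 1 and 3.

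Kif2c (also known as MCAK; ENSMUSG00000028678.13, GRCm38 chromosome 4, 117159639 to 117182639) does not walk but strips tubulin from microtubule ends at centromeres, where it helps to undo wrong attachments. Its normalized counts were 506, 91.1 and 1068 in CD93pos and 1.82, 0 and 206 in CD93neg. The CD93pos libraries differed by 11.7-fold, and the lowest lay below CD93neg replicate 3. The fitted log2 change was 5.46 with an SE of 2.45 (limma adjusted p = 0.423).

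Kif20a, Kif20b, Kif23 and Kif14 serve the midzone and cytokinesis. Kif20a (also known as MKLP2; ENSMUSG00000003779.15, GRCm38 chromosome 18, 34624613 to 34633277) carries the chromosomal passenger complex from chromosomes to the midzone. It had 518, 394 and 431 normalized counts in CD93pos and 0 in each CD93neg library, from 1134, 497 and 700 reads against none. The CD93pos libraries lay within 1.32-fold of each other, the narrowest range among the members. A count of 0 over the CD93neg group allows up to 0.287 CPM (3 reads over the group, counting error only), which puts Kif20a at least 362-fold higher in CD93pos, or at least 202-fold without CD93neg replicate 2. The fitted log2 change was 8.80 with an SE of 1.33 (limma adjusted p = 0.0558), the largest of the members. The authors' deposited table gives Kif20a a value of 10.77 with an adjusted p of 0.000604. Kif20a was among the 4.6% of tested genes with reads in every CD93pos library but none in CD93neg. Cdc23 on the opposite strand shares 1271 exon bases with it, or 29.3% of its exons, and had 0, 863 and 1040 reads in CD93neg, and the strand setting of the counting is not known here, so reads from the shared bases are uncertain.

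Kif20b (also known as MPP1; ENSMUSG00000024795.10, GRCm38 chromosome 19, 34922361 to 34975745), a motor of the midbody needed late in cytokinesis, had 596, 923 and 626 normalized counts in CD93pos and 0, 0 and 102 in CD93neg. The groups did not overlap, and the only CD93neg reads were 65 in replicate 3. Its fitted log2 change was 7.23 with an SE of 2.28 (limma adjusted p = 0.193), and 9.46 (limma adjusted p = 0.00762) without CD93neg replicate 3, the library that holds those reads. It was 6.11 without CD93neg replicate 1 (limma adjusted p = 0.205) and without CD93neg replicate 2 (limma adjusted p = 0.359).

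Kif23 (also known as MKLP1; ENSMUSG00000032254.9, GRCm38 chromosome 9, 61915905 to 61946774) is the motor of centralspindlin, the complex that bundles midzone microtubules and places the cleavage furrow. Its normalized counts were 347, 489 and 262 in CD93pos and 0, 99.9 and 324 in CD93neg. CD93neg replicate 3 exceeded CD93pos replicate 3, and the log2 fold change of 3.47 with an SE of 2.53 (limma adjusted p = 0.596) was 0.97 without CD93neg replicate 1. Kif14 (ENSMUSG00000041498.13, GRCm38 chromosome 1, 136466343 to 136531511), which works with citron kinase at the midbody, was the least read member. It had 118, 0 and 18.5 normalized counts in CD93pos and 0, 1.90 and 0 in CD93neg, with a log2 fold change of 3.21 and an SE of 1.94 (limma adjusted p = 0.526). Its groups overlapped because CD93pos replicate 2 had no read.

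The calls moved with single libraries. Without CD93neg replicate 3, limma called 5 of the 10 higher, Kif15, Kif20a, Kif20b, Kif2c and Kif4, where it called 16.2% of all tested genes higher. Without CD93pos replicate 2 it called Kif20a alone (limma adjusted p = 0.0269), with 6.05% of all tested genes called higher. With any of the other 4 libraries left out it called none of the 10. DESeq2 on the recovered reads called 4 members higher without CD93neg replicate 2 (Kif11, Kif15, Kif18a and Kif20a), with 8.07% of tested genes called higher. Without CD93neg replicate 3 it called 5 (Kif15, Kif20a, Kif20b, Kif2c and Kif4), with 17.9% of tested genes called higher. It called Kif20a alone when any CD93pos library was left out, with 1.14%, 1.24% and 0.938% of tested genes called higher without replicates 1, 2 and 3. Without CD93neg replicate 1 it called Kif15 and Kif20a, with 8.48% of tested genes called higher. With CD93neg replicate 1 as the only CD93neg library, limma called 8 of the 10 higher beside 62.1% of all tested genes, on the assumption that this library varies like the CD93pos libraries.

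**Figure D3:**
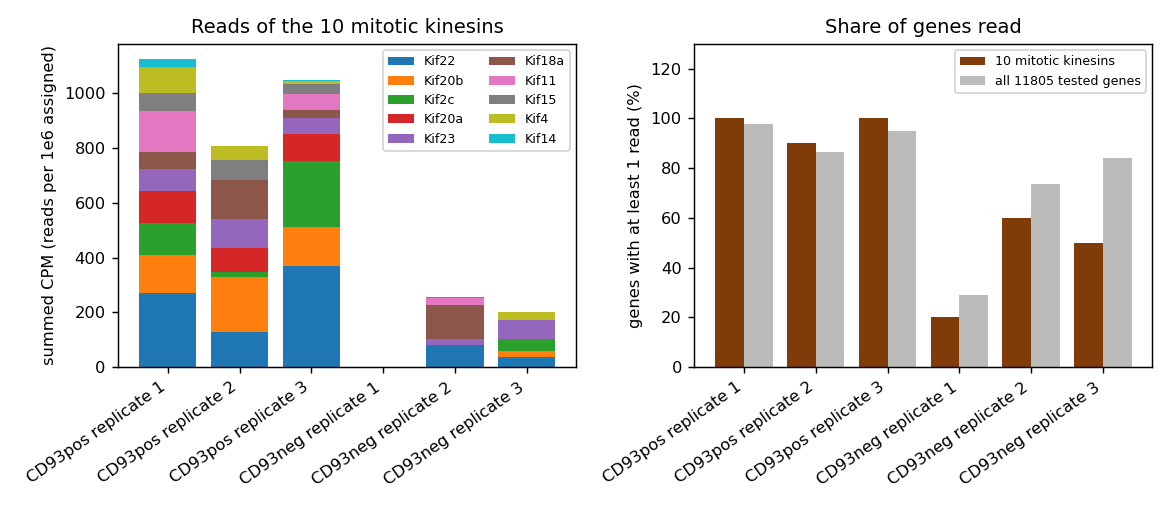
Left, summed CPM of the 10 mitotic kinesins in each library, stacked by gene; right, the percentage of the 10 mitotic kinesins and of all 11805 tested genes that had at least 1 read in each library. The sum is 807 to 1125 CPM in CD93pos and at most 255 CPM in CD93neg, and the members read number 10, 9 and 10 in CD93pos and 2, 6 and 5 in CD93neg.

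The CD93neg libraries did not read the same members. Replicate 1 had 1 read each of Kif18a and Kif2c. Replicate 2 had reads of 6 members, of which Kif18a held 48.3% and Kif22 31.0%. Replicate 3 had reads of 5, of which Kif23 held 34.3% and Kif2c 21.9%. The members without a read made up 80.0%, 40.0% and 50.0% in CD93neg replicates 1, 2 and 3, beside 71.0%, 26.4% and 16% of all tested genes in the same libraries. In CD93pos the only member without a read was Kif14 in replicate 2.

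Levels of different members were compared per length, as CPM per kb of exon. In CD93pos the order was Kif22 (52.1 ± 24.8), Kif2c (29.0 ± 25.6), Kif20a (23.3 ± 3.91), Kif20b (23.0 ± 5.11), Kif23 (10.4 ± 2.98), Kif4 (9.66 ± 7.75), Kif11 (9.40 ± 10.0), Kif18a (7.89 ± 6.04), Kif15 (5.16 ± 1.68) and Kif14 (1.01 ± 1.42; mean and SD, n = 3). Neighbours in this order overlapped between libraries except at 2 steps, from Kif20b to Kif23 and from Kif15 to Kif14. In CD93neg replicate 2 the highest were Kif22 at 16.1 and Kif18a at 12.5 CPM per kb, and in replicate 3 they were Kif2c at 10.1 and Kif23 at 8.72.

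**Figure D4:**
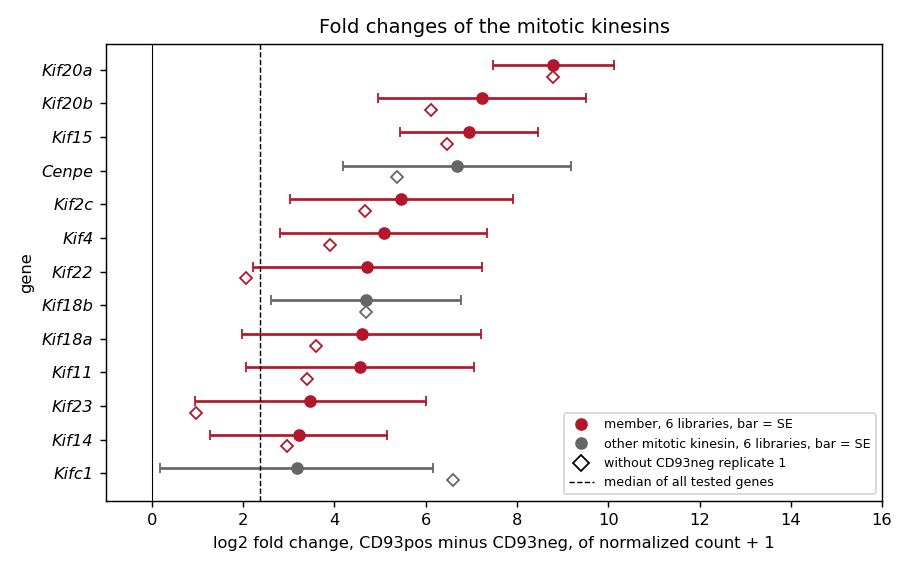
Log2 fold change of normalized count + 1, CD93pos minus CD93neg, on the horizontal axis for the 10 mitotic kinesins (red) and 3 further mitotic kinesins (grey); circles with bars are the value and SE over 6 libraries, diamonds the value without CD93neg replicate 1, and the dashed line the median of all tested genes. All 13 genes lie above 0, Kif20a is highest at 8.80, and the diamond of Kif23 drops to 0.97 and that of Kif22 to 2.06.

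Mitotic kinesins outside the set gave a mixed picture. Cenpe, the kinesin of the kinetochore, had 921, 843 and 1460 reads in CD93pos against 0, 0 and 149 in CD93neg (log2 fold change 6.68, limma adjusted p = 0.312). Kif18b, a plus-end motor, had 274, 0 and 221 reads against none in CD93neg (4.69, limma adjusted p = 0.422), and the authors' deposited table gives it an adjusted p of 0.0367. Kifc1, a minus-end motor that focuses spindle poles, had 540, 201 and 385 reads in CD93pos against 1469, 4 and 0 in CD93neg. The mean normalized counts of Kifc1 were 214 (CD93pos) and 890 (CD93neg), in the other order than its log2 fold change of 3.18 (limma adjusted p = 0.625). The high value came from the same CD93neg library that held 2 reads of the 10 members. Kif2b had no read in any library.

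Of 27 other kinesins, mostly motors of transport and cilia, 16 were tested and limma called 0, with 3 at an unadjusted p under 0.05. Their median log2 fold change was 3.17, with 15 of 16 above 0. Kif3c, Kif16b, Kif17 and Kif21b are among the 15, although their mean normalized counts were lower in CD93pos. These means were 51.5, 88.7, 85.9 and 34.3 in CD93pos against 62.5, 99.1, 131 and 119 in CD93neg. DESeq2 gave them values of -0.28, -0.16, -0.61 and -1.79. Over all tested genes the median was 2.36, with 79.9% above 0 and 11.8% higher at an unadjusted p under 0.05. Kif5b, the common heavy chain of conventional kinesin, is named outside the rule, with its values seen first. It had 3457, 3921 and 3297 reads in CD93pos against 624, 1908 and 1273 in CD93neg, with a log2 fold change of 0.43. Kif13a, a motor of endosome transport, had 302, 239 and 96 reads against 1, 1 and 0 (6.05, limma adjusted p = 0.0658; adjusted p = 0.0119 in the authors' deposited table). Kif9 and Kif21a had no read in CD93neg and 36 to 49 and 8 to 69 in CD93pos, with log2 fold changes of 4.80 and 4.05. Kif1b, a transport motor, had 4.47.

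The binding partners and regulators of the mitotic kinesins numbered 22, all tested. limma called 0, with 8 at an unadjusted p under 0.05, all higher in CD93pos, where the share of all tested genes was 11.8%. Of the 22 fold changes 21 were above 0, as were 79.9% of all tested genes, with a median of 4.60 against 2.36 for all tested genes. Aurkb, Cep55, Nek7 and Ccnb1 are among the 21, although their mean normalized counts were lower in CD93pos, as were those of Tpx2 (below). The means of these 4 were 974, 154, 443 and 944 in CD93pos against 1565, 1399, 604 and 1190 in CD93neg. DESeq2 called 6 of the 22, all higher, where it called 5.58% of all genes it tested higher. Plk1, the kinase that prepares midzone kinesins for their partners, had 1046, 348 and 963 CD93pos reads and no CD93neg read. Aurka, the spindle pole kinase, had 1185, 189 and 829 against none. Hmmr, a spindle assembly factor, and Ect2, the exchange factor recruited by centralspindlin, were also unread in CD93neg. Plk1, Aurka, Hmmr and Ect2 are named for the smallest limma p-values of the list. They had log2 fold changes of 7.76 (Ect2) to 8.74 (Plk1) and limma adjusted p-values of 0.0558.

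Racgap1, the second subunit of centralspindlin, had 1740, 648 and 1465 reads in CD93pos against 852, 827 and 349 in CD93neg, with a log2 fold change of -0.28 (limma adjusted p = 0.867). Kif23 per Racgap1, as a ratio of CPM per kb, was 0.391, 0.853 and 0.261 in CD93pos and 0, 0.114 and 0.531 in CD93neg, so the groups overlapped. Prc1, which crosslinks midzone microtubules and binds Kif4 and Kif20a, had 1808, 1155 and 1857 reads in CD93pos against 1043, 0 and 221 in CD93neg (3.46, limma adjusted p = 0.611). Tpx2, which recruits Kif11 and Kif15 to the spindle, had 1886, 1406 and 1630 reads in CD93pos against 1955, 0 and 0 in CD93neg (6.02, limma adjusted p = 0.486). The mean normalized counts of Tpx2 were 993 (CD93pos) and 1183 (CD93neg), in the other order than this fold change, and DESeq2 gave it a value of -0.25. In CD93neg replicate 1, 7 of the 22 partners had a read (Tpx2, Racgap1, Prc1, Aurkb, Cep55, Nek7 and Ccnb1), and 68.2% had none, close to the 71.0% of all tested genes without a read there and below the 80.0% of the members. Those 7 genes summed to 3889 CPM. In CD93neg replicates 2 and 3 the partners had 770 and 684 CPM, below the 2466 to 3095 CPM of CD93pos.

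**Figure D5:**
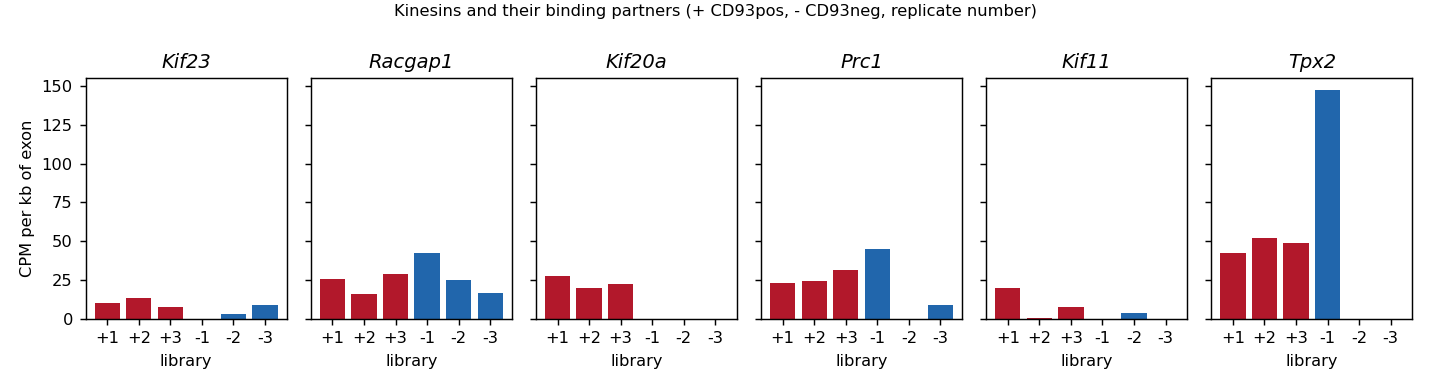
CPM per kb of exon of 3 mitotic kinesins and of a binding partner of each (Racgap1 for Kif23, Prc1 for Kif20a, Tpx2 for Kif11) in the 6 libraries; red bars are CD93pos, blue bars CD93neg, and the number is the replicate. In CD93neg replicate 1 Racgap1, Prc1 and Tpx2 stand at 42.5, 44.8 and 148 while the 3 kinesins have no read.

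Tubulins, the track of these motors, and dynein, the other microtubule motor, had lower median fold changes than the members. Of 15 tubulin genes, 11 were tested, and limma called 0, with 0 at an unadjusted p under 0.05. The median log2 fold change of the tubulins was 1.36, with 8 of the 11 above 0. Tuba4a, Tubb4b and Tubg2 were below 0, at -0.95, -0.58 and -2.49. For all tested genes the median was 2.36, with 79.9% above 0 and 11.8% higher at an unadjusted p under 0.05. Tubb5, a main beta-tubulin of dividing cells, had 9614, 4403 and 7816 reads in CD93pos against 2238, 2978 and 1240 in CD93neg (0.57, limma adjusted p = 0.483). Tuba1b, an alpha-tubulin, had a log2 fold change of 1.36, Tuba8 of 4.70, and Tubg1, the gamma-tubulin of spindle poles, of 5.10. Tubulin paralogs are close in sequence, so the split of reads among them is uncertain. Of 21 tested dynein and dynactin genes limma called 0, with a median of 2.73, above the 2.36 of all tested genes. At an unadjusted p under 0.05 there was 1. That gene, Nde1, which loads dynein at mitotic kinetochores, had 1905, 1587 and 1375 reads against 0, 0 and 244 (7.07, limma adjusted p = 0.319). Actr1a, Dynll2 and Dctn2 had 6.02, 2.93 and 3.62.

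The transcription regulators of G2 and mitosis, which include the subunits that read the CHR and CCAAT letters, were tested for 21 of 22 genes. limma called 0, with 8 at an unadjusted p under 0.05, all higher, beside 11.8% of all tested genes. All 21 fold changes were above 0 in the limma fit, as were 79.9% of all tested genes, and their median was 4.13 against 2.36. DESeq2 gave values below 0 to Foxm1 (-1.19), E2f2 (-1.42) and Rbbp4 (-0.42). It called 4 of the 21 higher, where it called 5.58% of all genes it tested higher. Lin52, Mybl2, E2f4 and Tfdp2 are named for the smallest limma p-values of the list. Lin52, a subunit of MuvB, had 305, 135 and 284 reads in CD93pos against 0, 1 and 0 in CD93neg (6.79, limma adjusted p = 0.0558). Mybl2, which encodes B-Myb, had 561, 131 and 184 against 0, 7 and 0 (6.21, limma adjusted p = 0.0798). E2f4, a repressor of resting cells in the DREAM complex, had 941, 279 and 670 against 0, 0 and 10 (7.06, limma adjusted p = 0.0844), and its dimer partner Tfdp2 had 809, 811 and 750 against 1, 2 and 9 (6.59, limma adjusted p = 0.0995). Foxm1, also named with its values seen first, had 174, 98 and 128 reads in CD93pos against 0, 448 and 72 in CD93neg. The mean normalized counts of Foxm1 were 78.7 (CD93pos) and 179.6 (CD93neg), in the other order than its log2 fold change of 1.13 (limma adjusted p = 0.813).

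The tested genes whose values over the 6 libraries followed the mean of the members most closely included Gmip, Ap3d1, Cmss1 and Runx3, with Pearson r of 0.988 to 0.997 on the log2 scale. Gmip, the closest, had 381, 125 and 172 reads in CD93pos against 0, 8 and 6 in CD93neg. These r values describe 6 libraries that differ in depth and include the sparse CD93neg replicate 1. Each member followed the mean of the other 9 with an r of 0.56 (Kif18a) to 0.90 (Kif15).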

How the data were processed

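Polyadenylated RNA was sequenced in 6 libraries, 3 per group, with groups taken from the sample titles. Per the labels' protocols, a low-input kit was used and reads were paired, 50 bp long. STAR, featureCounts (Subread 1.5.0-p1) and DESeq2 1.26 are listed in the submitters' processing notes, beside GRCm38 and mm10 as builds. Neither the annotation release nor the strand setting is named in the sources used here. A first deposited table holds normalized signal per gene and library, counts that the authors had divided by size factors. A second holds the authors' DESeq2 output: mean signal, log2 fold change and SE, the Wald score, p-value and adjusted p-value.

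Dividing by each library's step gave back whole reads for 100% of the nonzero values (tolerance 0.001 of a read). limma 3.58.1 (trend, two-sided) tested log2(normalized count + 1) where the mean normalized count reached 10. The pseudocount understates the change of low genes, and a library at 0 gives large values. Alternatives in R 4.3.3 were edgeR 4.0.16 and DESeq2 1.42.0 on those reads; the latter made the same 705 calls as the authors' table. Symbols are the authors'. Positions and exon lengths are from GENCODE M21 on GRCm38, which holds 47224 of the 47937 gene IDs, and promoters from RefSeq (GRCm38.p6). Libraries held 2832653 to 9509304 assigned reads. Reads of amplified libraries are not independent molecules, so floors cover counting error only.

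Named genes were the 10 members, Cenpe, Kifc1, Kif18b, Kif2b, Racgap1, Prc1 and Tpx2, the 4 genes with the smallest p in each of 5 lists (other kinesins, partners, tubulins, dynein and dynactin, regulators of G2 and mitosis), and the 5 genes most like the mean of the members, of which 1 is not reported here; predicted genes and pseudogenes were left out. Kif28 and Kifbp were not matched to a symbol. The members and lists were chosen with earlier results of these data known. The fit was tested on simulated data. The pseudocount, the filter, the scaling, the test, a replicate block, the depth and the libraries included were each varied. DESeq2 with each library left out, and CD93neg replicate 1 as the only CD93neg library, were added after seeing the data. Python 3.11.15 was used for the other steps.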

Additional observations from a re-analysis of the deposited data

How the results depend on the processing

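The log2 fold changes of the 10 members were recomputed under 24 alternatives (22 for Kif14, which fell under the filter in the other 2). They stayed above 0 for 9 members; that of Kif14 was -0.70 under quantile normalization, and the cause was not tested. limma called 0 of all tested genes, 0 mitotic kinesins and 0 genes of the 6 other lists. With a pseudocount of 0.5 these counts were 206, 1 and 7, and with DESeq2 705, 2 and 12. With the replicate block limma called 24 genes, none of them in these lists. Libraries of the same number correlated at 0.04, 0.02 and 0.06 in their deviations from the group means, each of the 6 best with its own number. These small values do not settle whether the libraries are paired. The main fit had no replicate block because the labels state no pairing. Leaving out 1 library gave 0 to 1873 genes, 0 to 5 mitotic kinesins and 0 to 27 genes of the other lists with limma, the highest without CD93neg replicate 3. DESeq2 called 310, 245 and 220 genes with CD93pos replicate 1, 2 or 3 left out, and 1339, 1094 and 2446 with CD93neg replicate 1, 2 or 3 left out. Of the mitotic kinesins these were 1, 1, 1, 2, 4 and 5, and of the other lists 6, 9, 7, 23, 16 and 28. With CD93neg replicate 1 alone as CD93neg, assumed to vary like the CD93pos libraries, the counts were 8176, 8 and 76. The other alternatives gave 0 in all 3. Scaling by TMM, scaling to total reads, thinning to 2832653 reads and both other filters kept all tested members above 0. A 0 in CD93neg replicate 1 shows little, because that library had no read for 71.0% of tested genes. CD93neg replicate 3 lacked 16% of them at a similar depth, 3003095 against 2832653 reads. The cause of the difference was not tested.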
